A study of Mus musculus with 2 samples.

Results

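The fibrillins, the latent TGF-beta binding proteins and the microfibril-associated proteins were described as 1 family of 9 genes, taken by name: Fbn1, Fbn2, Ltbp1, Ltbp2, Ltbp3, Ltbp4, Mfap2, Mfap4 and Mfap5. Every probe set (a group of probes for 1 transcript) annotated to exactly 1 of these genes was used, which gave 16 of the 45101 probe sets on the array. They belonged to 8 of the 9 genes. Fbn1 was not analysed here. RNA came from the vagina of Fbln5-/- and WT female mice of the C57/Bl6 background, and each genotype was measured on 1 Affymetrix array. All animals lacked ovaries and had been given estradiol at 50 µg/kg/d for 3 d, so no group without estrogen and no intact group enters the comparison. The labels give an age of 6 months and ovariectomy on 11 d, while the series text places ovariectomy at 2 wks. The labels call the Fbln5-/- mice a knockout of Fbln5, the fibulin-5 gene, and name no promoter or Cre. The methods describe more animals than arrays per genotype without a statement on pooling. With 1 array per genotype no difference has a replicate check, so no error between animals and no p-value is given.

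Fibrillins are long glycoproteins that polymerize into microfibrils, the threads on which elastin is laid down to form an elastic fibre. Latent TGF-beta binding proteins (LTBPs) share the domain plan of fibrillins. Ltbp1, Ltbp3 and Ltbp4 bind the latent form of TGF-beta and hold it in the matrix, whereas Ltbp2 does not bind it. Ltbp4 also takes part in elastic fibre assembly together with fibulin-5, the product of the gene deleted here. In the vaginal wall, elastic fibres lie in the stroma and the muscular layer, and estrogen thickens the epithelium above them.

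Ltbp1, Ltbp2 and Mfap4 were more than 2-fold higher on the Fbln5-/- array than on the WT array at every probe set that could be read (a signal of 100 or more on at least 1 array). Ltbp4 was more than 2-fold lower. Mfap5 was higher at both of its probe sets by less than 2-fold. Ltbp3 and Mfap2 each had 2 readable probe sets that went opposite ways, and Fbn2 barely reached the limit of reading on 1 array.

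The promoters of the LTBP genes past 2-fold at their only readable probe set are shown first, because these genes went in both directions. Each run holds the 250 bases before an annotated transcription start (RefSeq, GRCm38.p6), 5′ to 3′ on the gene's strand. Of the 9 genes, 6 had at least 1 entry in the promoter table, and Mfap4 was not among them. Ltbp1 has 2 starts in that table, and the more upstream of the Ltbp4 starts is shown. Capitals mark CAGAC, the core of Smad binding elements, and GGGCGG, the core of Sp1 sites, on either strand (GTCTG and CCGCCC on the other). The runs lie at chr17:75005279-75005528 (+) and chr17:75178531-75178780 (+) for Ltbp1, at chr12:84876492-84876741 (-) for Ltbp2 and at chr7:27337613-27337862 (-) for Ltbp4.
Ltbp1, upstream start: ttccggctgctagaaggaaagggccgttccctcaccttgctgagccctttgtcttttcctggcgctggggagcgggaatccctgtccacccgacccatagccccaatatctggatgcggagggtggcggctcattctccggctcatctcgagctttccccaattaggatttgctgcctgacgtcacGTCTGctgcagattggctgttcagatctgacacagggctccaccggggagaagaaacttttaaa
Ltbp1, downstream start: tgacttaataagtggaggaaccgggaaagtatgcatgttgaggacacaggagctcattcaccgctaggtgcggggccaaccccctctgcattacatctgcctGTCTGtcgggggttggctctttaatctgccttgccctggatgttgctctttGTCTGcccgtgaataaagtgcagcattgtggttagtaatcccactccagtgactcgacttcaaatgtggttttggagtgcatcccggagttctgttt
Ltbp2: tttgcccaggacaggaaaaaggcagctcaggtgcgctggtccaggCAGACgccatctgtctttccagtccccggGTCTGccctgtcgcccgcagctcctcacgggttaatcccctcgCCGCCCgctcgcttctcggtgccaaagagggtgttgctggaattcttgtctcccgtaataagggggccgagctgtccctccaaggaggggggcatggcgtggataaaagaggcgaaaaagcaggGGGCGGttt
Ltbp4, upstream start: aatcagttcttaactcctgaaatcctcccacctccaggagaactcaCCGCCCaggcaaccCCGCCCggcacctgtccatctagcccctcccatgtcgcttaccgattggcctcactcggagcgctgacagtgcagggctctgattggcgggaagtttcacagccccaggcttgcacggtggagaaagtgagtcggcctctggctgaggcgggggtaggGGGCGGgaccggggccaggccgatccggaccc

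CAGAC occurred 1 time before the upstream Ltbp1 start, 2 times before the downstream Ltbp1 start and 2 times before the Ltbp2 start. It did not occur before the Ltbp4 start shown, or in the windows of the 2 other annotated Ltbp4 starts. Among members given no direction, CAGAC occurred 1 time before the Ltbp3 start, 1 time before 1 Mfap2 start and 0 times before the other. Before the Fbn1 start it occurred 0 times. At least 1 CAGAC was present in 42.2% of all 32851 promoters of the same length. GGGCGG occurred 3 times before the Ltbp4 start shown, 2 times before the Ltbp2 start and 0 times before either Ltbp1 start. In the windows of the 2 other Ltbp4 starts, which overlap each other, it occurred 5 and 7 times, overlapping matches included. Before 1 Mfap2 start it occurred 2 times and before the other 0 times. Before the Fbn1 start it occurred 1 time and before the Ltbp3 start 0 times. Of all promoters, 32.7% held it. TATAAA (in 12.4% of promoters), the AP-1 site TGANTCA (in 6.75%) and the estrogen response element GGTCANNNTGACC (in 0.0639%) were searched on both strands as well and occurred in none of the 4 windows. No 2 matches overlapped in the windows shown. A match marks letters only, and binding was not measured.

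Signals are given as intensities scaled so that both arrays had the same median. A signal under 100 was taken as not readable, after the limit in the methods, and a probe set was kept when it reached 100 on at least 1 array. Of the 16 probe sets 11 were kept, 8 of them higher and 3 lower on the Fbln5-/- array. The other 5 were under 100 on both arrays and give no fold. Where 1 array was under 100, the fold is a bound computed against 100.

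**Figure D1:**
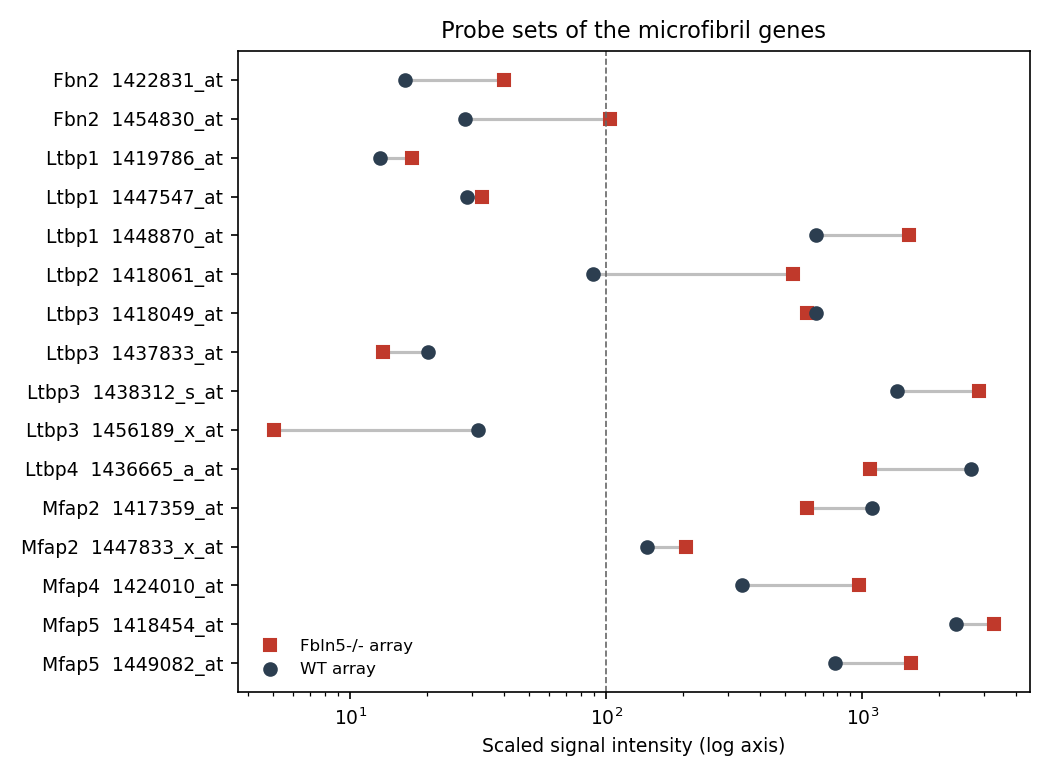
Scaled signal intensity (log axis) of the 16 probe sets of the microfibril genes on the Fbln5-/- array (squares) and the WT array (circles), 1 array each, joined by a line. The dashed line marks a signal of 100. Ltbp2 (535.7 on the Fbln5-/- array and 88.88 on the WT array) has the widest gap among probe sets that reach 100, and Ltbp4 (1070 and 2658) runs the other way.

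The fibrillins were represented by Fbn2, a fibrillin best known from embryonic and growing tissue. Its brighter probe set had a signal of 103.7 on the Fbln5-/- array and 28.1 on the WT array. The second had 40 on the Fbln5-/- array and 16.43 on the WT array. Both were thus higher on the Fbln5-/- array, but only 1 of these 4 signals reached 100, and the fold was at least 1.04. The log2 ratio of the measured signals was 1.88. Since the Fbln5-/- array alone lifted it over 100, a rise was the only direction open to it.

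Among the LTBPs, Ltbp2 had the widest gap. Its single probe set had a signal of 535.7 on the Fbln5-/- array and 88.88 on the WT array, which is at least 5.36-fold higher. With signals under 100 set to 100, 78 of the 11934 measured genes (0.654%) were as far up or farther. Like Fbn2, it was under 100 on the WT array and could only rise. Ltbp2 is a gene of chromosome 12, as is Fbln5, and 97 protein-coding genes separate the pair in the gene order of GRCm38.p6. None of the other members is on that chromosome.

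Ltbp1, which holds latent TGF-beta in the matrix, had a signal of 1517 on the Fbln5-/- array and 662.1 on the WT array at the 1 probe set that could be read. The fold was 2.29. Both of its other probe sets were at background, with 17.48 and 32.8 on the Fbln5-/- array and 13.13 and 28.49 on the WT array. Of all measured genes, 3.63% were as far up or farther. Whether the readable probe set separates the transcripts of the 2 starts shown above was not analysed here.

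Ltbp4 was the 1 member more than 2-fold lower. Its single probe set had a signal of 1070 on the Fbln5-/- array and 2658 on the WT array (log2 ratio −1.31), a difference of 2.48-fold. Of all measured genes, 1.99% were as far down or farther. Control probe sets along 2 housekeeping transcripts were lower at their 5′ ends and in their middle on the same array. The 5′ probe set of Gapdh, a glycolytic enzyme, had a signal of 794.7 on the Fbln5-/- array and 17262 on the WT array, against 13829 on the Fbln5-/- array and 13329 on the WT array at its 3′ end. The middle probe set of Gapdh had 7058 on the Fbln5-/- array and 15720 on the WT array (2.23-fold lower). The actin gene Actb had log2 ratios of −1.87 at the 5′ probe set, −1.22 at the middle one and −0.18 at the 3′ one. Where the Ltbp4 probe set lies along its transcript was not analysed here. The part of this difference in the lower or the higher signals of the family, and of the genes on the lists below, was not tested.

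Ltbp3 gave 2 answers. Its brighter probe set, whose name ends in _s_at and which may therefore match more than 1 transcript, had a signal of 2872 on the Fbln5-/- array and 1366 on the WT array (log2 ratio 1.07). The other readable probe set had 610.6 on the Fbln5-/- array and 663 on the WT array (log2 ratio −0.12). A pair of further probe sets, which share 1 accession, stood under 100 on both arrays, at 13.47 and 5.039 on the Fbln5-/- array and at 20.23 and 31.7 on the WT array. No direction is given for this gene.

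The microfibril-associated proteins are small glycoproteins that decorate the fibril. Mfap4, a fibrinogen-domain protein that binds elastin and collagen, had a signal of 975.6 on the Fbln5-/- array and 338.2 on the WT array, 2.88-fold higher at its single probe set. Of all measured genes, 2.02% were as far up or farther. Mfap5, also called MAGP-2, had 3265 on the Fbln5-/- array and 2335 on the WT array at the brighter probe set (log2 ratio 0.48). At the second probe set it had 1550 on the Fbln5-/- array and 782.5 on the WT array (log2 ratio 0.99). Both of its probe sets were thus higher and both stayed under 2-fold.

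Mfap2, also called MAGP-1, is the closest relative of Mfap5. Its brighter probe set went down, with 611.4 on the Fbln5-/- array and 1096 on the WT array (log2 ratio −0.84). The second, an _x_at probe set whose probes may match other transcripts, went up, with 204.7 on the Fbln5-/- array and 144.8 on the WT array (log2 ratio 0.50). No direction is given for this gene either. Disagreement of this kind was common on the arrays. Of 4893 genes with several readable probe sets, 47.7% had probe sets on both sides of 0, with a median range of 0.60 on the log2 scale, while the range was 1.34 for Mfap2, 1.19 for Ltbp3 and 0.50 for Mfap5.

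**Figure D2:**
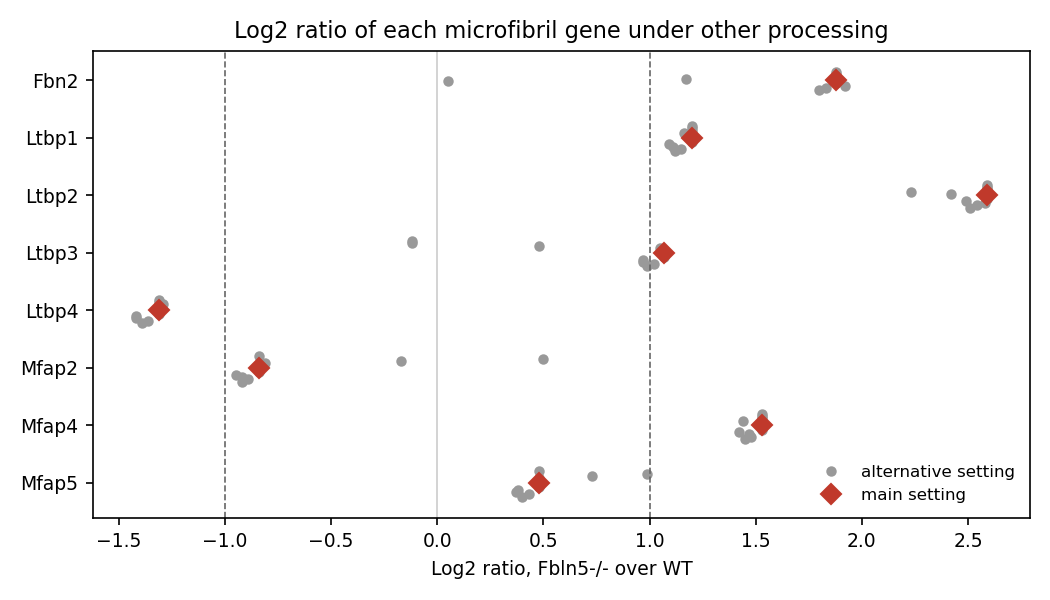
Log2 ratio of Fbln5-/- over WT, 1 array each, for the 8 microfibril genes analysed, in the main setting (diamonds) and in up to 12 other ways of scaling, filtering or choosing probe sets (grey circles). Dashed lines mark a 2-fold difference. Ltbp1 (1.09 to 1.20), Ltbp2 (2.23 to 2.59), Mfap4 (1.42 to 1.53) and Ltbp4 (−1.42 to −1.29) keep to 1 side of their 2-fold line, while Ltbp3 and Mfap2 cross 0. Ltbp1, Ltbp2, Mfap4 and Ltbp4 have 1 readable probe set each, so other filters and choices of probe set could not move them.

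Each gene was then represented by its brightest probe set. Of the 8 genes, 5 reached 2-fold upward in Fbln5-/- and 1 reached it downward, where 7.21% of the 11934 measured genes reached it upward and 4.77% downward. Fbn2 and Ltbp2 are among the 5 and could only rise. Of the 6 genes at 100 or more on both arrays, 3 were at least 2-fold higher and 1 lower, against 5.26% and 3.59% of the 10990 such genes. The 3 were Ltbp1, Mfap4 and Ltbp3, although no direction is given for Ltbp3. Of the 11 readable probe sets, 5 were at least 2-fold higher and 1 was lower, against 6.29% and 8.65% of all readable probe sets. When a gene counted only if all its readable probe sets were past 2-fold, a rule added after the data were seen, Ltbp3 dropped out, leaving 4 higher genes (Fbn2, Ltbp1, Ltbp2 and Mfap4) and 1 lower (Ltbp4), against 5.75% and 4.01% of all genes. Setting signals under 100 to 100 removed Fbn2 and also left 4. Ltbp1, Ltbp2 and Mfap4 were higher under both conditions. The median log2 ratio of the family was 1.13 (0.78 with signals under 100 set to 100), beside 0.16 over all measured genes (0.15 with the same floor). These counts describe 2 arrays and a family chosen by name with earlier results known.

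**Figure D3:**
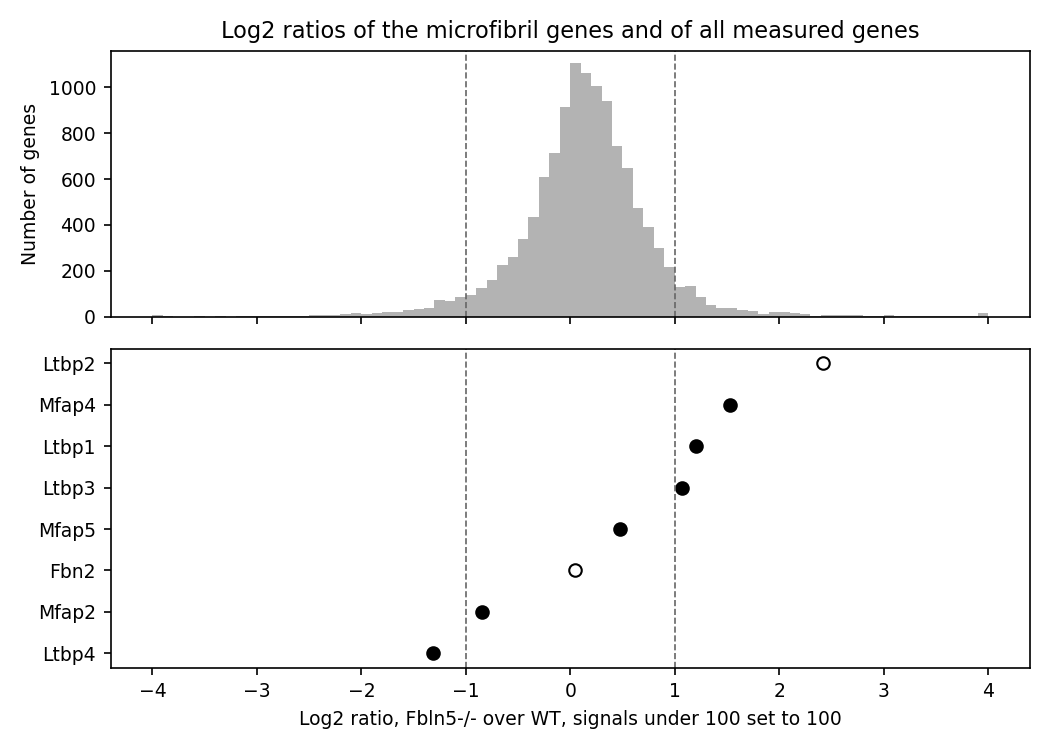
Number of measured genes (top) at each log2 ratio of Fbln5-/- over WT, 1 array each, and the 8 microfibril genes (bottom), with signals under 100 set to 100. Open circles are bounds for genes under 100 on the WT array, dashed lines mark a 2-fold difference, and the bars at the far ends hold all genes beyond them. Ltbp2, Mfap4, Ltbp1 and Ltbp3 lie above the upper line and Ltbp4 below the lower one.

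The partners of the family in the elastic fibre were split as well. The counts past 2-fold of the pathway lists that follow stand beside 7.21% of all measured genes upward and 4.77% downward. Fbln5, the deleted gene, had a signal of 30.44 on the Fbln5-/- array and 410.4 on the WT array, at least 4.1-fold lower, and whether this probe set lies in the deleted part is not known. Its second probe set was under 100 on both arrays (45.66 on the Fbln5-/- array and 36.47 on the WT array). Of 5 fibulins measured, none was at least 2-fold higher and 2 were lower, Fbln5 itself and Fbln1. Fbln5 was readable on the WT array only and could only fall. With 100 required of both arrays, 1 fibulin was at least 2-fold lower. Fbln1, a fibulin of basement membranes and elastic tissue, had 1501 on the Fbln5-/- array and 3859 on the WT array (log2 ratio −1.36), and 1 other probe set was lower too (−1.21). Its remaining readable probe set was under 100 on the Fbln5-/- array (32.19 on the Fbln5-/- array and 150.5 on the WT array), at least 1.51-fold lower. Efemp1, which encodes fibulin-3, had 978.8 on the Fbln5-/- array and 490.4 on the WT array, just under the 2-fold line.

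Of 5 genes for elastin and the lysyl oxidases, which crosslink it, 2 were at least 2-fold higher and none lower. Lox had signals of 5515 on the Fbln5-/- array and 1272 on the WT array, and its second readable probe set was also higher (log2 ratio 1.74). Eln was higher at its brighter probe set (log2 ratio 1.49), while the other had 6.17 on the Fbln5-/- array and 430.1 on the WT array, at least 4.3-fold lower. No direction is given for Eln, although it counts among the 2. Loxl1 and Loxl3 had log2 ratios of 0.00 and −0.03. Of 13 other proteins of microfibrils and elastic fibres, 1 was at least 2-fold higher, the proteoglycan versican (Vcan, 1506 on the Fbln5-/- array and 716.2 on the WT array), and 1 was lower. The other readable probe set of Vcan had a log2 ratio of 0.76, and Vcan was under 2-fold with the deposited values, quantile normalization, arrays centred on probe sets readable on both, or the median or dimmest probe set. The lower gene was Adamts10, a protease of the ADAMTS family that binds fibrillin. It had 69.72 on the Fbln5-/- array and 425.5 on the WT array, at least 4.25-fold lower. The fibrillin ligand fibronectin (Fn1) had a log2 ratio of 0.75, and the proteoglycans Bgn and Dcn had 0.64 and 0.40. Emilin1 and Emilin2, glycoproteins at the elastin and microfibril interface, both stayed near the median of all genes, at 0.22 and 0.24.

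The LTBPs hold the TGF-beta ligands. Of 10 TGF-beta ligands and activators, none was at least 2-fold higher and 2 were lower, Tgfb1 and Tgfb3. Tgfb1 had a signal of 560 on the Fbln5-/- array and 2092 on the WT array (3.74-fold lower), and Tgfb3 had 600.8 on the Fbln5-/- array and 1335 on the WT array (2.22-fold lower), each at its 1 readable probe set. The part of the lower 5′ and middle control signals of the Fbln5-/- array in these lower values was not tested. Tgfb2 had a log2 ratio of −0.19. Furin, a convertase that cleaves the TGF-beta precursor, had 0.64, the activator Thbs1 had 0.59 at its brighter probe set and −1.07 at the other, and the integrin chain Itgav had 0.44 at its brighter probe set and −0.67 at the other.

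Of 10 TGF-beta receptors and Smads, 1 was at least 2-fold lower, the co-receptor Eng (log2 ratio −1.22 at 1 probe set and 0.00 at the other), and none was higher. The receptors Tgfbr1, Tgfbr2 and Tgfbr3 stood at 0.56, 0.07 and 0.20 on the log2 scale, each by its brightest probe set. Another readable probe set of Tgfbr2 had 9.152 on the Fbln5-/- array and 336.5 on the WT array (at least 3.36-fold lower), and one of Tgfbr3 had 45.97 on the Fbln5-/- array and 222.1 on the WT array (at least 2.22-fold lower). Of 29 genes on the pathway lists with several readable probe sets, 13 had them on both sides of 0. Of 11 genes known as TGF-beta targets, 2 were at least 2-fold higher and none lower, beside 7.21% and 4.77% of all measured genes. They were Ltbp2 itself, which could only rise, and Ccn2. With 100 required of both arrays the count was 1. Ccn2, a matricellular growth factor, had 2635 on the Fbln5-/- array and 429.3 on the WT array (6.14-fold higher). Periostin (Postn) had a log2 ratio of 0.82 and Tgfbi 0.30. Of 6 BMP and activin ligands, whose relatives are held by fibrillin, Bmp6 was higher (329 on the Fbln5-/- array and 105.3 on the WT array, 3.12-fold) and none was lower by its brightest probe set, with Bmp4 at a log2 ratio of 0.21. With the dimmest readable probe set 2 of these 6 were at least 2-fold lower, Bmp7 and Inhbb. Bmp7 had −0.28 at its brightest probe set, but 163.6 on the Fbln5-/- array and 466 on the WT array at the second, and 2.879 on the Fbln5-/- array and 254.9 on the WT array at the third. Inhbb had −0.47 at the brighter one, and 203.4 on the Fbln5-/- array and 1052 on the WT array at the other.

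**Figure D4:**
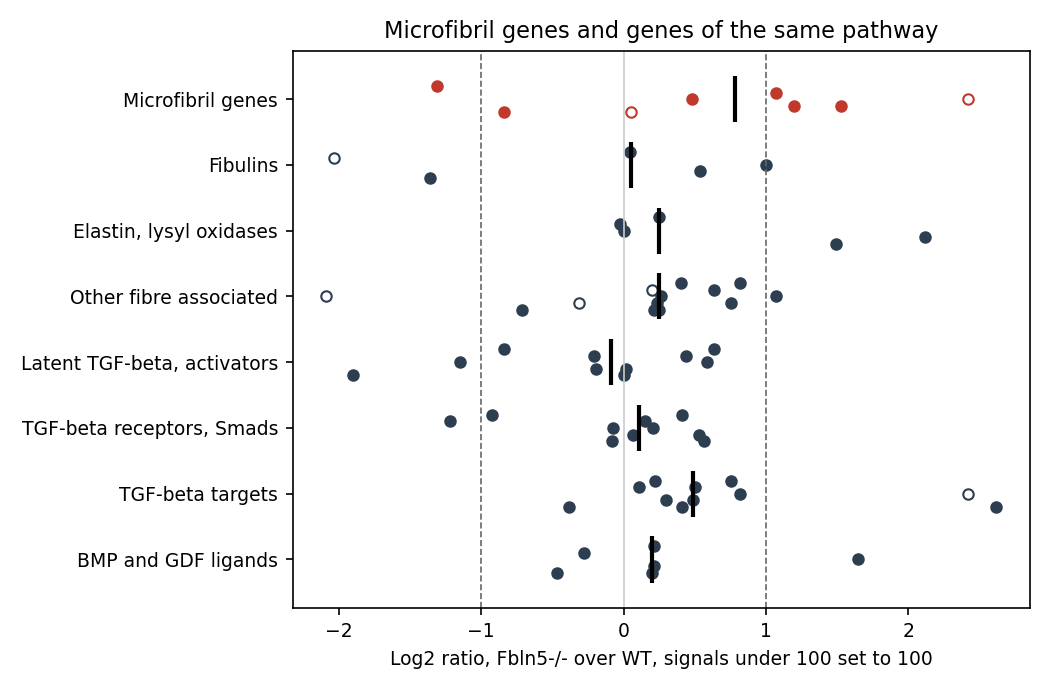
Log2 ratio of Fbln5-/- over WT, 1 array each, for the microfibril genes (red) and 7 lists of the same pathway, with signals under 100 set to 100. Genes that did not reach 100 on both arrays are drawn open, the median of each list is a vertical bar, and 2-fold differences are dashed. The microfibril genes have a median of 0.78, the fibulins 0.05, elastin and the lysyl oxidases 0.25, and latent TGF-beta and its activators −0.09.

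These genes are made by stromal cells in the main, and markers of several cell types differed between the arrays. The tissue label was borne by its markers, with the keratins Krt13, Krt10 and Krt5 of stratified epithelium at log2 ratios of 0.08, 0.04 and 0.00 and signals of at least 16059 on both arrays. By their brightest probe sets, all 10 fibroblast markers had log2 ratios above 0 (median 0.40), as had 63.6% of all measured genes (median 0.16). A dimmer readable probe set was lower for Pdgfra (log2 ratio −0.57) and for Col1a2 (−0.49), and the other readable ones of the list were higher. Of the 10 markers, 1 was at least 2-fold higher by its brightest probe set (Dpt, 1.42). Their summed signal was 83842 on the Fbln5-/- array and 66295 on the WT array. The 3 brightest, Col1a2, Col3a1 and Dcn, had log2 ratios of 0.10, 0.26 and 0.40. Smooth muscle markers had a median of 0.03 over 8 genes, none of them past 2-fold, with Acta2, Tagln and Actg2 at 0.14, −0.02 and 0.68. Their summed signal was 42233 on the Fbln5-/- array and 39943 on the WT array. Of 10 adipocyte markers listed 5 could be read, and all 5 were at least 2-fold higher, with a summed signal of 11719 on the Fbln5-/- array and 2773 on the WT array. Among them Fabp4 had a log2 ratio of 1.53, Lpl of 2.54 and Adipoq of 3.44. Retn had 449.1 on the Fbln5-/- array and 34.81 on the WT array, and Ucp1 had 696.3 and 9.627. Both were under 100 on the WT array and could only rise. With 100 required of both arrays, 3 adipocyte markers were at least 2-fold higher, against 5.26% of all genes readable on both. Ltbp1, Ltbp2 and Mfap4 were higher, and Ltbp4 lower, on the array with more adipocyte and fibroblast signal. The medians of nerve and Schwann cell, macrophage and skeletal muscle markers, given below, were above 0.40 as well. The part of these differences in the levels of the members was not tested. In whole tissue, more cells of a type and more RNA per cell cannot be told apart.

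Of the other lists, median log2 ratios were 0.21 for 7 endothelium markers, 0.51 for 6 macrophage markers, 0.82 for 3 nerve and Schwann cell markers, 0.41 for 6 skeletal muscle markers and 0.02 for 6 glandular and urothelial markers. Epithelial markers had a median of 0.19 over 9 genes. Single genes of these lists past 2-fold, named after their values were seen, were the epithelial Ivl (1.36), the macrophage Cd163 (1.33) and Mrc1 (1.42), the Schwann cell S100b (1.10), the skeletal Myh1 (1.75) and the glandular Foxa1 (3.63), while the urothelial Upk1a was lower (−1.49). Since 1 of the arrays was under 100 for S100b, Foxa1 and Upk1a, their folds are bounds, of at least 1.29-fold higher, at least 9.55-fold higher and at least 1.27-fold lower. Over all genes, 861 reached 2-fold upward and 569 downward. A scaling that centres the probe sets readable on both arrays on a ratio of 1 gave 679 and 698, and the median of all genes was 0.05 under it, against 0.16. With that scaling Ltbp1, Ltbp2 and Mfap4 were still more than 2-fold higher and Ltbp4 still more than 2-fold lower.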

How the data were processed

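Linear intensities of 45101 probe sets per array were deposited by the authors, who had computed and scaled them with MAS5 per the labels (the sources used here name no version). The 50th percentile normalization of the methods was followed by scaling both arrays to a common median (factors 1.03 for Fbln5-/- and 0.972 for WT), and the 1 zero, on the WT array, was replaced by 0.1. Scaled signals under 100 made up 55.6% of Fbln5-/- and 55.2% of WT probe sets, and precision is limited by having 1 array per genotype.

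Gene names came from the platform annotation of the probe sets (34958 with 1 gene symbol, 932 with several, 9211 not listed), with symbols updated through the gene table for 34754. For each gene, the probe set of highest mean signal among the readable ones (100 or more on either array) was taken, and 64 control probe sets were left out. The family, 7 pathway lists and 9 cell type lists were chosen with earlier results of these data known. All members were named. The plan was up to 6 genes per pathway list, those past 2-fold first and then the brightest, and up to the 3 brightest per cell type list. It was not kept to in full. Some brighter pathway genes, such as Fbln2, Itgb5 and Col1a1, are not described above, and further cell type genes past 2-fold are. With 1 array per genotype no test was made. A protein comparison that had been planned was not made. The steps were tested on simulated arrays of 11685 genes for Fbln5-/- over WT, in which 100 of 100 genes raised by 1.5 on the log2 scale and 100 of 100 changed by −1.5 were counted as past 2-fold, as were 0 of 11485 unchanged genes. The simulated spread was chosen, so this gives no error rate for the real arrays. Alternatives were 4 other scalings (none, 75th percentile, quantile, probe sets readable on both arrays centred on a ratio of 1), 3 other filters, low signals raised to 100, an added constant of 32, a 3-fold threshold and 3 other choices of probe set. Python 3.11.15, numpy 2.4.6, pandas 2.3.3 and matplotlib 3.10.9 were used.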

Additional observations from a re-analysis of the deposited data

How the results depend on the processing

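Ltbp1, Mfap4 and Mfap5 kept their direction and their side of the 2-fold line under all 12 alternatives run, as did Ltbp2 and Ltbp4 under the 11 that could be run for each. Ltbp1, Ltbp2, Ltbp4 and Mfap4 have 1 readable probe set each. For these genes the other filters and choices of probe set could not move the ratio, so those alternatives do not test it. Ltbp2 was under 100 on the WT array and could only rise. The number of microfibril genes at least 2-fold higher was 5. It was 3 when probe sets readable on both arrays were centred on a ratio of 1, 3 when a signal of 100 was required of both arrays, which leaves out Ltbp2 and Fbn2, and 2 at a 3-fold threshold, and between 4 and 5 elsewhere. The number at least 2-fold lower was 1, and 0 at the 3-fold threshold or without _x_at, _s_at and _a_at probe sets. The name of the single Ltbp4 probe set ends in _a_at. Ltbp3 turned to −0.12 without _x_at, _s_at and _a_at probe sets or with its dimmer probe set. It stood between 0.97 and 0.99 with the deposited values, quantile normalization or that centring. Mfap2 turned to 0.50 with its dimmer probe set. Over all genes, 2048 were higher and 1535 lower without a filter, and 1293 were lower with the dimmest readable probe set. Of 576 list medians and counts under these alternatives, 528 were within 1.5-fold of the main value and 48 moved. Among single genes of the lists, Eln turned to lower with the median or dimmest readable probe set. Of genes still measured, those that lost their 2-fold call under at least 1 alternative were Vcan, Eng, S100b and Upk1a. No paired analysis was possible because there is 1 array per genotype. The limit of 100 leaves 5 of the 16 probe sets without a fold, and a difference that only a spread between animals could qualify was not measurable here.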
